A study of Mus musculus with 14 samples.

Results

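Oxidative phosphorylation is the last stage of aerobic respiration, carried out by 5 protein complexes of the inner mitochondrial membrane. Of the 26252 genes in the count table, 84 were protein-coding nuclear genes of these complexes by their symbols (Nduf other than Ndufaf, Uqcr, Cox followed by 4 to 8, and Atp5, plus Sdha, Sdhb, Sdhc, Sdhd and Cycs). They comprised 36 genes of complex I, 4 of complex II, 8 of complex III, 18 of complex IV, 17 of complex V, and Cycs. Ndufa4, which was first assigned to complex I but is a subunit of complex IV, and its paralogue Ndufa4l2 were counted with complex IV. The rule used symbols alone and no measured value.

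Total RNA was sequenced from epithelial cells of wild-type C57BL/6JOlaHsd mouse dorsal skin at E14.5. Cells were sorted with an antibody against the adhesion molecule MAdCAM-1 into a positive, placode-enriched fraction and a negative fraction named IFE for interfollicular epithelium. There were 7 libraries of each fraction, and the title codes joined them into 7 pairs, each fraction being sorted from the pooled epithelium of 3 to 4 embryos of a litter. Placodes are the epidermal thickenings from which hair follicles grow. The placode-enriched fraction is defined by a surface antigen and is not a pure population, and the IFE fraction holds every other sorted epithelial cell.

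In the respiratory chain, complex I oxidises NADH and complex II oxidises succinate, and both pass electrons through ubiquinone to complex III. Cytochrome c carries them on to complex IV, which reduces oxygen, and complex V makes ATP with the proton gradient that complexes I, III and IV build up. The mitochondrial genome encodes a few central subunits, and all the others, as well as the whole of complex II, are encoded in the nucleus. Developing and adult skin use both glycolysis and respiration, and the balance between them differs among epidermal and hair follicle cells.

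Library totals lay between 23.8 and 49.5 M (mega counts), averaging 32.8 ± 8.44 M for the placode-enriched and 33.7 ± 4.91 M for the IFE fraction (SD, n = 7 each). Madcam1, the gene of the sorted antigen, had 36.5, 40.1 and 66.6 CPM (counts scaled to a library of 1 M; lowest, median and highest library) in the placode-enriched fraction, against 0.171, 0.612 and 1.23 CPM in IFE, so that the fractions did not overlap. All 6 placode markers tested, Madcam1 among them, were higher in the placode-enriched fraction. Markers of other cells moved with the fractions too. All 7 suprabasal markers fell, with sums of 212 to 471 CPM in the placode-enriched and 2886 to 4521 CPM in the IFE fraction. The 7 melanoblast markers tested of 8 listed also fell, with sums of 8.31 to 14.6 CPM in the placode-enriched and 120 to 218 CPM in the IFE fraction, Dct reaching 0 in 1 of the 14 libraries. Dermal fibroblast markers did not move together. Of 7 markers 6 were tested, 2 rose (Dcn and Col1a2) and 1 fell (Col1a1). Col3a1, Lum and Pdgfra did not pass, and Twist2 was too low to test. The sums were 365 to 592 CPM in the placode-enriched and 248 to 338 CPM in the IFE fraction. Dcn made up most of these sums, averaging 498 and 258 CPM, so they mainly follow 1 gene. The part of suprabasal cells, melanoblasts and fibroblasts in the results below was not tested.

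Messenger RNAs of these nuclear genes were slightly lower in the placode-enriched fraction, with a negative median log2 fold change in every complex. Of 82 members with enough counts to be tested, 30 (36.6%) fell and 1, Cox6b2, rose at an adjusted p under 0.05 (edgeR, a quasi-likelihood fit with pairs as blocks, adjusted over 15382 genes). Among all genes tested 15.6% fell, 15.5% rose and 31.1% passed in either direction. The median log2 fold change of placode-enriched over IFE was -0.23 over the members, with quartiles of -0.29 and -0.16, and -0.02 over all genes tested. The log2 fold change was negative for 77 of 82 members (93.9%) and positive for 5, where 47.6% of all genes tested were positive. In bulk libraries, fewer cells of a type and less RNA per cell cannot be told apart.

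The differences were small for single genes. Only 4 members lay beyond 0.5 on the log2 scale in either direction, namely Cycs, Cox4i2, Cox7a1 and Ndufa4l2. The 95% interval lay within 0.5 of 0 for 58 members (70.7%), against 42% of all genes tested, and 39 of these were among the 51 members that did not pass. Another 16 members had an unadjusted p under 0.05 in edgeR without passing. The share of all genes tested for which this held was not counted, so the number has no background beside it. No member had fractions whose CPM did not overlap, whereas this held for 14.8% of all genes tested. The same sign in 7 of 7 pairs was found for 19 members (23.2%), 18 of them lower and 1 higher, against 26.5% of all genes. The coefficient of variation among libraries had a median over the members of 15.2% in the placode-enriched and 12.3% in the IFE fraction.

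**Figure D1:**
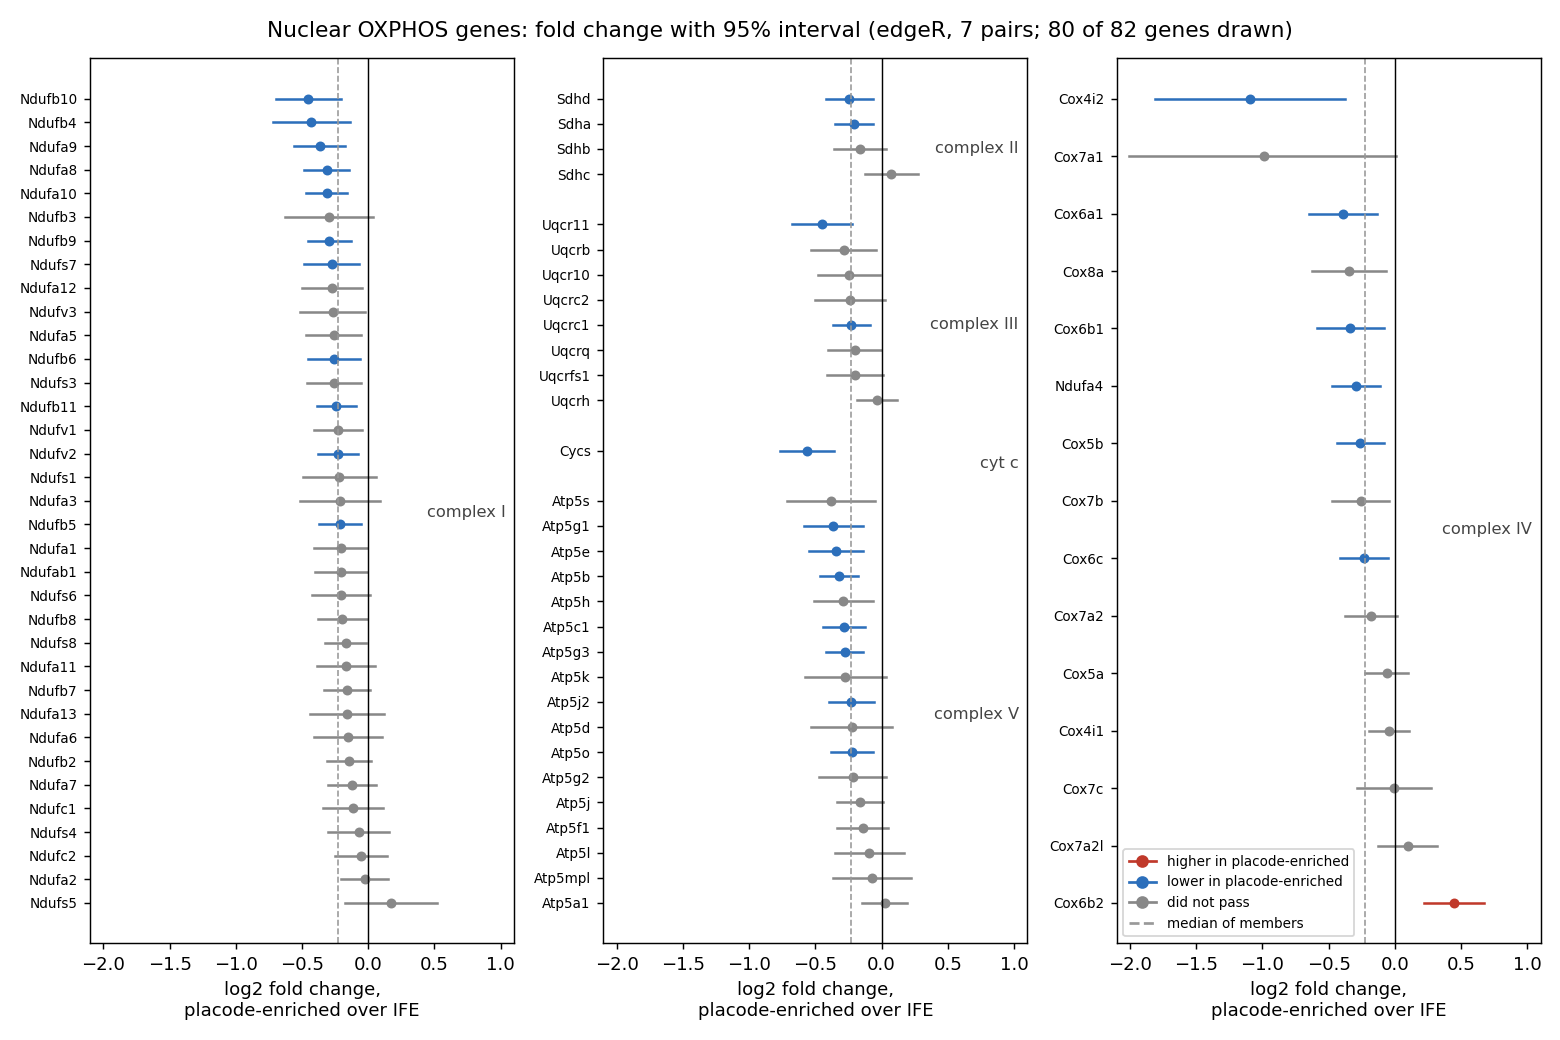
Log2 fold change of placode-enriched over IFE for members tested, by complex, with its 95% interval from 7 pairs; blue marks the members that fell, red the 1 that rose and grey those that did not pass, and the dashed line is the median of the members, -0.23. Most points lie between the dashed line and 0 or just left of it in every complex, and Ndufa4l2, at -2.88, is among those not drawn.

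All 84 members together had 9683, 10470 and 11966 CPM in placode-enriched libraries (lowest, median and highest), against 11105, 11910 and 13516 CPM in IFE libraries. The ranges overlapped, and the sum was lower in the placode-enriched library in 7 of 7 pairs. By raw counts the members took 1.07 ± 0.0837% of a placode-enriched library and 1.2 ± 0.0644% of an IFE library (SD, n = 7 each), lower in 6 of 7 pairs. Summed by complex, complex I had a median of 2561 CPM in the placode-enriched and 2910 CPM in the IFE fraction, complex III 922 and 1071 CPM, and complex V 4535 and 5039 CPM, each lower in 7 of 7 pairs. The sum of complex IV had medians of 2096 CPM in the placode-enriched and 2463 CPM in the IFE fraction and was lower in 6 pairs, and that of complex II had medians of 395 and 438 CPM and was lower in 5 pairs.

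The size of the difference varied between pairs. The median log2 difference of the members was -0.34 in pair 1, -0.40 in pair 3, -0.22 in pair 5, -0.19 in pair 4, -0.18 in pair 6 and -0.11 in pair 7. In pair 2 it was -0.03, equal to the median of all genes in that pair to 2 decimals, and 34 of 82 members were higher in the placode-enriched library. Pairs 1 and 3 thus had the largest shifts and pairs 2 and 7 the smallest, and complex IV had a median slightly above 0 in pair 2 (0.02) and pair 7 (0.05). The number of members that fell depended on single pairs. It was 17 without pair 1, 15 without pair 4 and 16 without pair 6, and the median over the members stayed between -0.24 and -0.20 when any pair was left out.

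**Figure D2:**
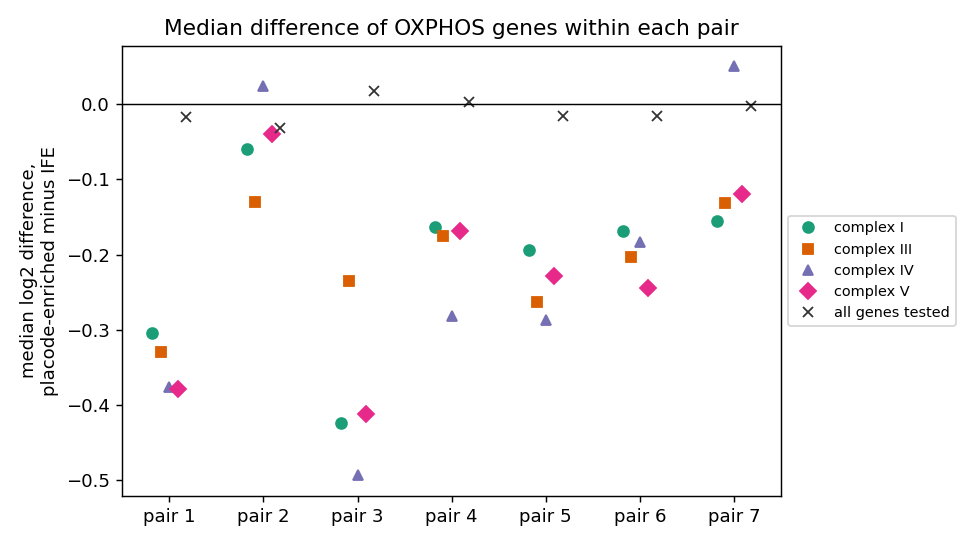
Median log2 difference, placode-enriched minus IFE, within each of 7 pairs for the genes of complexes I, III, IV and V (symbols) and for all genes tested (crosses). The medians of complexes I, IV and V are lowest in pairs 1 and 3 and those of complex III in pairs 1 and 5, while the median of all genes stays between -0.03 and 0.02.

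Of the 31 calls, 12 held under all 17 alternatives other than analysing a subset of pairs alone, namely Ndufa8, Ndufa9, Ndufa10, Ndufb9, Ndufb10, Uqcr11, Cycs, Cox6b2, Ndufa4l2, Atp5b, Atp5c1 and Atp5g3. The other 19 were lost under at least 1 of them.

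Promoters of some members are shown because many respiratory genes are known to be controlled by nuclear respiratory factor 1 (NRF1). NRF1 is a transcription factor of mitochondrial biogenesis that binds a palindrome rich in GC. RefSeq windows of 300 bases, from 250 before to 50 after the transcription start (GRCm38.p6), were matched for 66 members (71 windows). The NRF1 motif, searched on both strands as GCGCA, any base, then GCGC (on the other strand GCGC, any base, then TGCGC), was found in 18 of 71 windows (25.4%), against 4.6% of all 32851 windows of the table. It occurred in 9 of 26 members that fell and in 8 of 39 that did not pass, and a difference between these shares was not tested. The motif AAGATGGC of the factor YY1 was in 12.7% of the members' windows and 2.7% of all windows, CCGGAAGT of the ETS family in 7.0% and 3.9%, and GGGCGG of the Sp family in 39.4% and 35.7%. No 2 NRF1 matches overlapped. A match is a run of letters and does not show that the factor bound there.

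Below are the windows of 5 members that fell and hold NRF1 matches, from complex I (Ndufb4), II (Sdha), III (Uqcrc1), IV (Cox6a1) and V (Atp5g3), and of Cox6b2, the member that rose, whose window holds none. These 5 do not stand for the members that fell, of which only 9 of 26 hold a match, and 8 of 39 that did not pass hold one too. The windows are given 5′ to 3′ on the gene's strand, with NRF1 matches in capitals. The positions are chr16:37654319-37654618 on the minus strand for Ndufb4, chr13:74350191-74350490 on the minus strand for Sdha, chr9:108936398-108936697 on the plus strand for Uqcrc1, chr5:115348909-115349208 on the minus strand for Cox6a1, chr2:73911277-73911576 on the minus strand for Atp5g3 and chr7:4753045-4753344 on the minus strand for Cox6b2. Ndufb4 and Sdha hold 3 matches each, Uqcrc1 and Cox6a1 2 each and Atp5g3 1.
Ndufb4: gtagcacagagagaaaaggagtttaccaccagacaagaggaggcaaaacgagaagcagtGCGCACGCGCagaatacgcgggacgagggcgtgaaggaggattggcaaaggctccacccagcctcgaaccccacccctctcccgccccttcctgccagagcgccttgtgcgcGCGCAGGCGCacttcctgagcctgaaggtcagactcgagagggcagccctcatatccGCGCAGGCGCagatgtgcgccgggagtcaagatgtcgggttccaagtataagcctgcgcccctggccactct
Sdha: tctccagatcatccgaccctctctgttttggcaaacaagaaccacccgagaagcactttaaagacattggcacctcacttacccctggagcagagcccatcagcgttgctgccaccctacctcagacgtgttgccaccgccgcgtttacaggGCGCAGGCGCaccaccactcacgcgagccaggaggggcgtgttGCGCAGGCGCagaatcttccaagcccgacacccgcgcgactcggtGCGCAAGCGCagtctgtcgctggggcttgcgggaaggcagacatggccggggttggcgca
Uqcrc1: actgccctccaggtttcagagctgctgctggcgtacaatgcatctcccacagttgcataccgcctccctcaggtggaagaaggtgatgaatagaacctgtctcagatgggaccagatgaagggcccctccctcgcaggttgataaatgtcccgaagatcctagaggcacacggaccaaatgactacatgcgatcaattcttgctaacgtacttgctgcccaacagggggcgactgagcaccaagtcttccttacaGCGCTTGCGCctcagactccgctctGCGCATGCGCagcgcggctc
Cox6a1: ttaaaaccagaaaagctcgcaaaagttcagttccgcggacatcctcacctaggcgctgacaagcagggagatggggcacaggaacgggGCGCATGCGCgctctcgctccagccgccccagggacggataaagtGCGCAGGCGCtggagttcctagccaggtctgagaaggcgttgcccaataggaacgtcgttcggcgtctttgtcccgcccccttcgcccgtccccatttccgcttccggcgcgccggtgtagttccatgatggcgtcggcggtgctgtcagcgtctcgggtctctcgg
Atp5g3: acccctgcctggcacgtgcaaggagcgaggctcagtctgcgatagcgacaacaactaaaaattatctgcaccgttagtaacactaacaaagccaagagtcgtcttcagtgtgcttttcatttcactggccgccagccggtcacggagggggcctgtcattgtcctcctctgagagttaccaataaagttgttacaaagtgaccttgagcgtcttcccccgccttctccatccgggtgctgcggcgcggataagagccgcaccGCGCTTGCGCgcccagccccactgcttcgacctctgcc
Cox6b2: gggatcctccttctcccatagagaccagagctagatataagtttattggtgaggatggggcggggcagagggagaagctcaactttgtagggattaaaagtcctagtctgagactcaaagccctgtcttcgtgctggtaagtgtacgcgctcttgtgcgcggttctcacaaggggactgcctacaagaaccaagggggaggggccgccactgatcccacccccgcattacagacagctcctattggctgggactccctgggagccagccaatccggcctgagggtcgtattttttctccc

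Complex I, the NADH dehydrogenase, has 36 members, of which 11 fell and 25 did not pass, with a median log2 fold change of -0.21. The strongest difference was in Ndufb10, an accessory subunit of the distal membrane arm. It had 55.3, 80.3 and 97.2 CPM in placode-enriched libraries (lowest, median and highest), against 92.4, 104 and 123 CPM in IFE, a log2 fold change of -0.45 ± 0.11 (approximate SE; edgeR adjusted p = 0.00775). The fractions overlapped, and the placode-enriched library was lower in 7 of 7 pairs. Ndufb4, another membrane arm subunit, had far lower values, with 6.21, 7.88 and 9.29 CPM in the placode-enriched and 7.87, 10.6 and 13.7 CPM in the IFE fraction. Near-identical copies elsewhere can share reads with this gene, which fell by 0.43 on the log2 scale (adjusted p = 0.0255). Its promoter with 3 NRF1 matches is printed above. Ndufa10, an accessory subunit with a fold like that of nucleoside kinases, had 108, 129 and 150 CPM in the placode-enriched and 143, 160 and 185 CPM in the IFE fraction, a log2 fold change of -0.31 ± 0.07 (adjusted p = 0.00438). Its lowest IFE library was below its highest placode-enriched library, yet all 7 pairs were lower. Ndufa8, an accessory subunit of the membrane arm, had 40.2, 46.4 and 49.95 CPM in the placode-enriched and 49.5, 57.7 and 63.2 CPM in the IFE fraction (-0.31 ± 0.08, adjusted p = 0.00769), so that the ranges met only at their ends.

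The other complex I genes that fell differed by less or varied more. Ndufa9, which sits at the junction of the peripheral and membrane arms, averaged 36.5 ± 4.76 CPM in the placode-enriched and 46.9 ± 5.28 CPM in the IFE fraction (SD, n = 7 each; log2 fold change -0.37, adjusted p = 0.00684), and Ndufb9 averaged 101 ± 13.8 and 123 ± 4.01 CPM (-0.29, adjusted p = 0.00882). Ndufb5, Ndufb6 and Ndufb11, all accessory subunits of the membrane arm, had log2 fold changes of -0.21, -0.26 and -0.24 (adjusted p = 0.0432, 0.049 and 0.0173). Of the 7 core subunits, which carry the flavin and the iron-sulphur clusters, 2 fell. Ndufs7, the subunit with the last iron-sulphur cluster before ubiquinone, had 65.0, 73.2 and 107 CPM in the placode-enriched and 85.3, 102 and 108 CPM in the IFE fraction (-0.28, adjusted p = 0.0434). Ndufv2, an iron-sulphur protein of the NADH-oxidising end, had 97.4, 110 and 133 CPM in the placode-enriched and 107, 134 and 179 CPM in the IFE fraction (-0.23, adjusted p = 0.0257). Both overlapped widely between the fractions, although Ndufv2 was lower in 7 of 7 pairs.

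Core subunits that did not pass included Ndufv1, which binds the flavin (log2 fold change -0.23, adjusted p = 0.0507), and Ndufs1 (-0.22, adjusted p = 0.229). The NADH-oxidising N module had 1 of 10 genes lower and a median of -0.21, and the ubiquinone-reducing Q module had 2 of 6 lower and a median of -0.26. Ndufs5 had the highest value of the complex, 0.17 with an interval of -0.18 to 0.52, at 7.21 ± 1.52 CPM in the placode-enriched and 6.40 ± 1.29 CPM in the IFE fraction (SD, n = 7 each; adjusted p = 0.485). The other 22 genes that did not pass, most of them accessory subunits, lay between -0.30 (Ndufb3, interval -0.63 to 0.03) and -0.03 (Ndufa2, interval -0.20 to 0.15). Among them were Ndufa12 (-0.27, adjusted p = 0.0649), Ndufa5 (-0.26, adjusted p = 0.0565) and the core subunit Ndufs3 (-0.26, adjusted p = 0.056), as well as Ndufab1, the mitochondrial acyl carrier protein (-0.21, adjusted p = 0.103). Leaving out single pairs ended the calls of Ndufb4, Ndufb5, Ndufb6, Ndufb11, Ndufs7 and Ndufv2. Ndufb4 was lost without pair 3, 5, 6 or 7 (adjusted p up to 0.0698) and Ndufb11 without pair 1, 6 or 7 (up to 0.067), and the other 4 were each lost in 5 or 6 of the 7 fits that left out a pair (up to 0.164).

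Complex II, succinate dehydrogenase, has 4 subunits, of which Sdha and Sdhd fell and Sdhb and Sdhc did not pass. Sdha, the flavoprotein that oxidises succinate, had 108, 126 and 137 CPM in placode-enriched libraries, against 132, 144 and 156 CPM in IFE, with a log2 fold change of -0.21 ± 0.07 (adjusted p = 0.0284). It was lower in 6 of 7 pairs, and the ranges overlapped. The membrane anchor Sdhd averaged 70.6 ± 10.5 CPM in the placode-enriched and 83.4 ± 12 CPM in the IFE fraction (SD, n = 7 each; -0.24, adjusted p = 0.0423). The iron-sulphur subunit Sdhb averaged 93.2 ± 18.5 and 104 ± 17.1 CPM (-0.16, adjusted p = 0.215), and the second anchor Sdhc averaged 113 ± 18.9 and 107 ± 14 CPM (0.07, interval -0.13 to 0.27, adjusted p = 0.612). Sdha was lost without pair 2, 4, 6 or 7 (adjusted p up to 0.107) and Sdhd without pair 1, 2, 4, 5 or 6 (up to 0.127).

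Complex III, the cytochrome bc1 complex, had 8 of 8 log2 fold changes below 0, and 2 genes fell. Uqcr11, its smallest accessory subunit, had 108, 118 and 142 CPM in placode-enriched libraries, against 128, 169 and 212 CPM in IFE. The log2 fold change was -0.45 ± 0.10 (adjusted p = 0.00482), lower in 7 of 7 pairs with some overlap. Uqcrc1, a core protein on the matrix side, had 226, 251 and 263 CPM in the placode-enriched and 251, 291 and 310 CPM in the IFE fraction (-0.23 ± 0.06, adjusted p = 0.0149). All pairs were lower, and the call was lost without pair 1 (adjusted p = 0.0644). The hinge protein gene Uqcrh had the highest value, -0.03 with an interval of -0.19 to 0.12 (adjusted p = 0.776). The remaining 5 genes, among them Uqcrfs1 for the Rieske iron-sulphur protein, lay between -0.29 and -0.20 and did not pass.

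Cycs encodes the electron carrier cytochrome c (ENSMUSG00000063694; GRCm38 chromosome 6, 50562563 to 50566538, minus strand). It fell more than any tested subunit other than the isoforms Ndufa4l2, Cox4i2 and Cox7a1. It had 26.0, 38.4 and 44.6 CPM in placode-enriched libraries, against 40.8, 50.9 and 63.5 CPM in IFE. Its log2 fold change was -0.56 ± 0.09 (interval -0.76 to -0.36, adjusted p = 0.000454). The fractions overlapped, and all 7 pairs were lower.

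**Figure D3:**
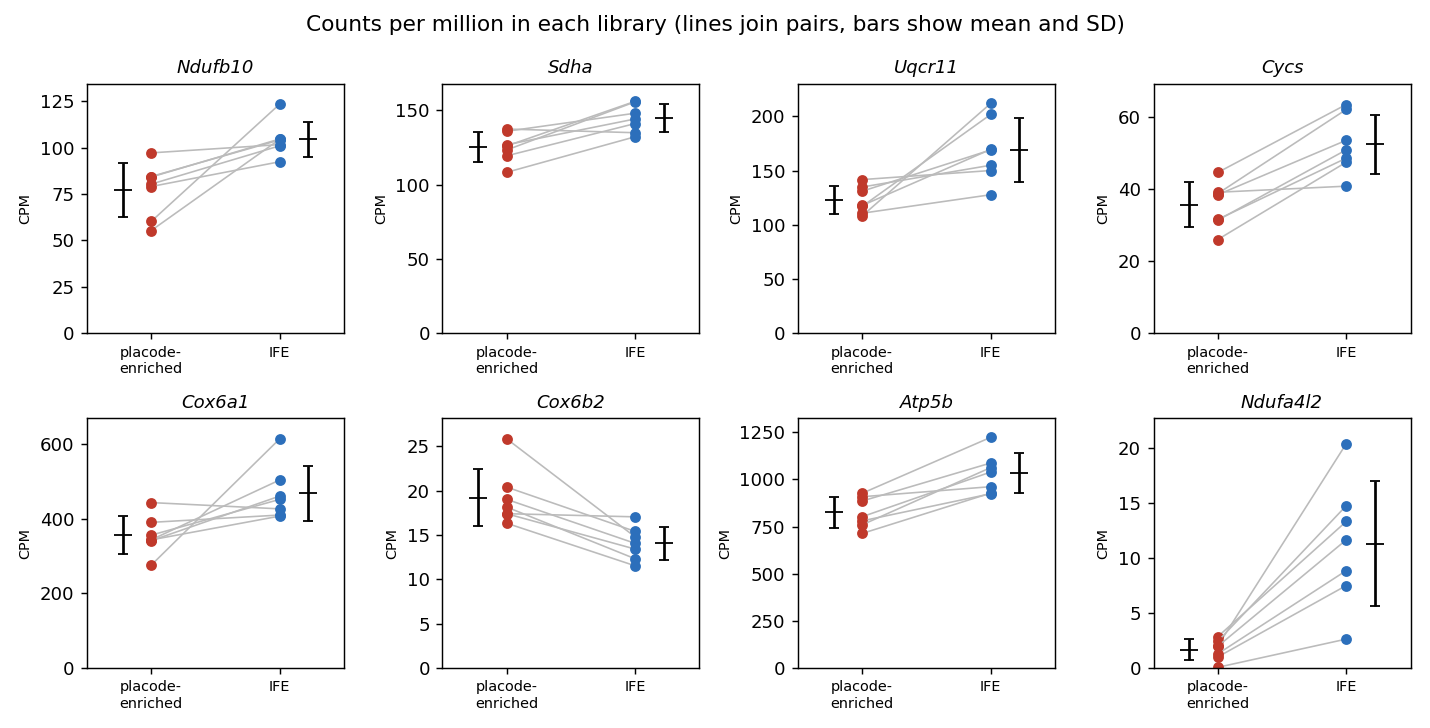
CPM on TMM-scaled library sizes in each of 14 libraries for 8 members (points), with lines joining the fractions of a pair and bars giving mean and SD (n = 7). Cox6b2 is higher in the placode-enriched library of every pair, Sdha and Cox6a1 are lower in 6 of 7 pairs, and the other 5 genes are lower in all 7.

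Complex IV, cytochrome c oxidase, includes several subunits that exist as isoforms encoded by separate genes. Of 18 members 16 were tested, 7 fell, 1 rose and 8 did not pass, with a median of -0.26. Cox6a1, the ubiquitous form of subunit 6A, had 275, 343 and 443 CPM in placode-enriched libraries, against 407, 452 and 614 CPM in IFE, a log2 fold change of -0.39 ± 0.12 (adjusted p = 0.023). Cox6b1, the ubiquitous form of subunit 6B on the face toward cytochrome c, had 164, 214 and 251 CPM in the placode-enriched and 224, 250 and 346 CPM in the IFE fraction (-0.33 ± 0.12, adjusted p = 0.044). Both were lower in 6 of 7 pairs, and their ranges overlapped. Ndufa4 had 62.7, 79.4 and 105 CPM in the placode-enriched and 91.8, 96.5 and 110 CPM in the IFE fraction (-0.29, adjusted p = 0.0169), and Cox5b, a zinc-binding subunit, averaged 83.2 ± 12.7 and 99.4 ± 10.7 CPM (-0.26, adjusted p = 0.0269). Cox6c also passed, next to the threshold, and its call was lost whichever pair was left out. Leaving out pairs 1 or 4 ended the calls of Cox6a1, Cox6b1, Ndufa4 and Cox5b, with adjusted p up to 0.133, and pairs 3, 5, 6 or 7 ended some of them.

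Subunits of complex IV that did not pass included Cox8a (log2 fold change -0.34, adjusted p = 0.0591) and Cox7a2 (-0.18, adjusted p = 0.156). Cox4i1, the common form of the largest nuclear subunit, averaged 226 ± 29.5 CPM in the placode-enriched and 231 ± 7.48 CPM in the IFE fraction (SD, n = 7 each; -0.04, interval -0.19 to 0.11). Cox7a2l averaged 109 ± 12.1 and 102 ± 13.7 CPM (0.10, adjusted p = 0.539). Cox7b had a log2 fold change of -0.26 (adjusted p = 0.0639), and Cox5a and Cox7c lay close to 0 at -0.06 (interval -0.22 to 0.10) and -0.01 (interval -0.28 to 0.27).

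Cox6b2 was the member that rose. It encodes the form of subunit 6B known from testis (ENSMUSG00000051811; chromosome 7, 4751792 to 4753094, minus strand). It had 16.3, 18.1 and 25.9 CPM in placode-enriched libraries, against 11.5, 14 and 17 CPM in IFE. The log2 fold change was 0.45 ± 0.10 (interval 0.22 to 0.67, adjusted p = 0.00524). All 7 pairs were higher in the placode-enriched fraction, with a small overlap of ranges, and the call held in all 7 fits that left out a pair (adjusted p up to 0.0144). On levels per kilobase of exon (RPKM), Cox6b1 exceeded Cox6b2 by 16.9 times in the placode-enriched and by 29.0 times in the IFE fraction, and by 10.2 and 17.6 times with the length of the principal transcript in place of all exons. Cox6b1 was the main form in both fractions.

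Isoforms linked to hypoxia or to special tissues were less abundant than the common form of their subunit in both fractions. Ndufa4l2 and Cox4i2 fell in the placode-enriched fraction. Ndufa4l2, a paralogue of Ndufa4 known as a target of hypoxia-inducible factor (ENSMUSG00000040280; chromosome 10, 127514967 to 127517154, plus strand), had 0.0402, 1.95 and 2.83 CPM in placode-enriched libraries, against 2.61, 11.6 and 20.4 CPM in IFE. This rests on 406 counts in the placode-enriched and 2697 in the IFE libraries. The log2 fold change was -2.88 ± 0.24 (adjusted p = 9.31e-07), lower in 7 of 7 pairs, with ranges that overlapped through 1 low IFE library. Its exons overlap those of Shmt2 on the opposite strand, whose strand setting in counting is not given. Shmt2 had 150 ± 30.5 CPM in the placode-enriched and 185 ± 24.0 CPM in the IFE fraction, lower in 7 of 7 pairs, and its part in the Ndufa4l2 value was not tested. Epas1, which encodes a hypoxia-inducible factor subunit, had 0.450 ± 0.350 CPM in the placode-enriched and 8.0 ± 1.65 CPM in the IFE fraction (-4.30, adjusted p = 6.48e-07). Hif1a, at 193 ± 35.9 CPM in the placode-enriched and 202 ± 25.7 CPM in the IFE fraction, did not pass (-0.07, adjusted p = 0.66). Among 11 tested genes linked to hypoxia 4 fell and 2 rose, Bnip3 (0.48) and Vegfa (0.45). A link between these genes and Ndufa4l2 was not tested.

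Cox4i2, the form of subunit 4 found in lung and oxygen-sensing cells, had 0.354, 0.837 and 1.65 CPM in placode-enriched libraries, against 0.902, 2.00 and 2.67 CPM in IFE. Its log2 fold change was -1.09 ± 0.33 (adjusted p = 0.0234), lower in 7 of 7 pairs, and the ranges overlapped. The call was lost without pair 2, 3, 6 or 7 (adjusted p up to 0.0717). Cox7a1, the heart and muscle form of subunit 7A, had 157 counts in all placode-enriched and 269 in all IFE libraries, 0.681 ± 0.636 and 1.11 ± 0.444 CPM (-0.99, interval -2.0 to 0.01, adjusted p = 0.129). The muscle form Cox6a2 had 1 count in the placode-enriched and 14 counts in the IFE libraries, in 1 and 2 libraries, and the testis form Cox8c had 0 counts in the placode-enriched and 13 counts in the IFE libraries, from 2 libraries. Neither was tested. A limit of 3 counts came to 0.126 CPM in the smallest library of each fraction, and it covers counting error only.

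Markers of pericytes and muscle cells, in which these isoforms are known to be high, were mostly near 0, apart from Cspg4. Pericyte and smooth muscle markers summed to 17.9 to 57.9 CPM in the placode-enriched and 8.20 to 23.5 CPM in the IFE fraction, nearly all from Cspg4, the 1 of 6 markers that could be tested, which rose by 1.44 on the log2 scale. The other 5 were too low to test. Rgs5 averaged 0.108 CPM in the placode-enriched and 0.0850 CPM in the IFE fraction, Kcnj8 0.0211 and 0.0452 CPM, Abcc9 0.376 and 0.0696 CPM, Pdgfrb 0.336 and 0.328 CPM, and Myh11 0.220 and 0.333 CPM. Of the 8 muscle markers with values, 1 (Mylpf) was tested and did not pass, and their sums were 0.553 to 2.20 CPM in the placode-enriched and 1.07 to 3.06 CPM in the IFE fraction. The 1 endothelial marker tested of 5, Pecam1, rose. The 5 markers had sums of 0.945 to 3.84 CPM in the placode-enriched and 0.214 to 1.43 CPM in the IFE fraction. Pecam1 made up most of these sums, averaging 1.83 and 0.493 CPM. Cdh5 and Emcn had only 4 and 3 counts over all 14 libraries, 0 of them in IFE. Erythroid and brown fat markers summed to at most 0.879 CPM in any library.

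**Figure D4:**
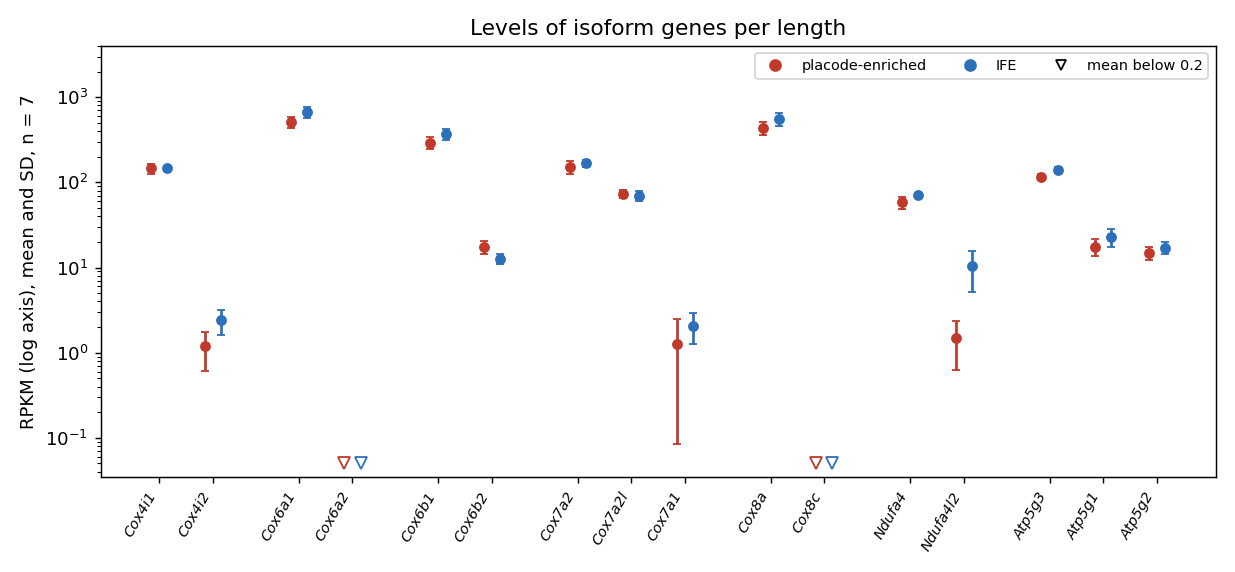
Mean RPKM and SD (n = 7 libraries of each fraction, log axis) for isoform genes of complexes IV and V, with placode-enriched left of IFE in each gene; open triangles are genes with a mean below 0.2 RPKM, drawn at a fixed height. The common form of each subunit is above its special form in both fractions, and among the genes drawn with values Ndufa4l2 shows the widest gap between fractions.

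Per length, Cox6a1 had the highest level of all members, 507 RPKM in placode-enriched and 666 RPKM in IFE libraries, followed by Cox8a (435 and 552 RPKM) and Atp5a1 (428 and 422 RPKM). With the length of the principal transcript, the highest 3 were Cox6a1, Atp5a1 and Atp5k in the placode-enriched and Cox6a1, Cox8a and Atp5k in the IFE fraction. The level of Cox4i1 exceeded that of Cox4i2 by 122.6 times in the placode-enriched and 61.8 times in the IFE fraction, Cox7a2 exceeded Cox7a1 by 117.9 and 81.1 times, and Ndufa4 exceeded Ndufa4l2 by 39.1 and 6.9 times. With the principal transcript length these ratios were 231.1 in the placode-enriched and 116.5 in the IFE fraction for Cox4i1, 124.1 and 85.3 for Cox7a2, and 75.5 and 13.3 for Ndufa4, so that their size depends on the length chosen. These ratios were not tested between fractions.

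Complex V, the ATP synthase, has 17 members, of which 7 fell and 10 did not pass, with a median of -0.23. Its catalytic head is a ring of alternating alpha and beta subunits, and these differed in their values. Atp5b, the catalytic beta subunit (ENSMUSG00000025393; chromosome 10, 128083273 to 128090391, plus strand), had 714, 802 and 927 CPM in placode-enriched libraries, against 924, 1040 and 1224 CPM in IFE, a log2 fold change of -0.32 ± 0.07 (adjusted p = 0.00218). The ranges met only at their ends, and 7 of 7 pairs were lower. Atp5a1, the alpha subunit, had 1202, 1341 and 1469 CPM in the placode-enriched and 1169, 1378 and 1470 CPM in the IFE fraction. Its log2 fold change was 0.02 with an interval of -0.14 to 0.19 (adjusted p = 0.856), and its ranges coincided. Atp5a1 was the highest of complex V, and the difference between the alpha and beta genes was not tested. Of the central stalk, Atp5c1 (gamma) averaged 349 ± 43.5 CPM in the placode-enriched and 425 ± 56.2 CPM in the IFE fraction (SD, n = 7 each; -0.28, adjusted p = 0.00919), and Atp5e (epsilon) had a log2 fold change of -0.34 (adjusted p = 0.0144). Atp5d (delta), also of the central stalk, did not pass (-0.23, interval -0.53 to 0.08, adjusted p = 0.264). It was higher in the placode-enriched library in 3 of 7 pairs.

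The proton-translocating ring is built of identical c subunits, which 3 genes encode with the same mature protein. Atp5g3 was the most abundant of these per length and had 224, 245 and 294 CPM in placode-enriched libraries, against 278, 316 and 331 CPM in IFE (-0.28 ± 0.06, adjusted p = 0.00524). It was lower in 7 of 7 pairs with a small overlap. Atp5g1 averaged 86.7 ± 19.6 CPM in the placode-enriched and 112 ± 27.3 CPM in the IFE fraction (SD, n = 7 each; -0.36 ± 0.10, adjusted p = 0.0162), and Atp5g2 averaged 24.8 ± 4.45 and 28.7 ± 4.86 CPM (-0.22, adjusted p = 0.186). The RPKM of Atp5g3 exceeded that of Atp5g1 by 6.6 times in the placode-enriched and 6.2 times in the IFE fraction, and that of Atp5g2 by 7.9 and 8.2 times. With the principal transcript length, the ratios were 19.1 and 17.9 to Atp5g1, and 10.3 and 10.8 to Atp5g2. That length is 4715 bases for Atp5g1, 731 for Atp5g2 and 723 for Atp5g3. The size of these ratios and the order of Atp5g1 and Atp5g2 thus depend on the length chosen. Atp5o, the oligomycin sensitivity protein of the peripheral stalk, and Atp5j2, a small membrane subunit, had log2 fold changes of -0.22 and -0.23 (adjusted p = 0.0317 and 0.0424). Atp5s, a coupling factor that is not part of the enzyme's core structure, had the lowest value, -0.38, and did not pass (adjusted p = 0.0789). The other genes that did not pass lay between -0.29 (Atp5h, a peripheral stalk subunit, adjusted p = 0.0504) and -0.07 (Atp5mpl, a small membrane subunit, adjusted p = 0.738). Among them were the peripheral stalk genes Atp5f1 at -0.14 and Atp5j at -0.16. Calls were lost without pair 4 or 6 for Atp5g1 (adjusted p up to 0.0679), without pair 4 or 7 for Atp5e (up to 0.0703), and in 5 of the 7 fits that left out a pair for Atp5o and Atp5j2 (up to 0.133).

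Near-identical copies and overlapping genes can share reads with some members. At least 1 annotated transcript elsewhere matched 25 of the 84 members over 100 bases or more at 95% identity or more, including Cycs, Uqcr11, Ndufb4, Ndufb11, Cox5b, Cox6c, Atp5c1, Atp5g1 and Atp5o among those that fell, and their values are uncertain to that extent. Among the 57 tested members with no such copy 21 fell and 1 rose, with a median of -0.22. Exons of 27 members overlap exons of the opposite strand, for example in Ndufa9, Ndufb5, Ndufb6, Ndufb11, Cox6c and Atp5o. Among the 56 tested members with no overlap on the opposite strand 23 fell and 1 rose, with a median of -0.25. Exons of 5 members (Ndufb2, Ndufb8, Ndufb9, Atp5g2 and Atp5o) overlap exons of another annotated gene on the same strand. Of these, Ndufb9 and Atp5o fell.

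Other mitochondrial genes were measured beside the members. Of 13 mitochondrially encoded subunits of the same complexes, 11 had values. Of these, mt-Co2, mt-Co3 and mt-Atp6 had only 5, 4 and 2 counts over 14 libraries, beside 5096019 for mt-Co1, so the table hardly measures them. The 8 that were tested had a median log2 fold change of -0.07, and 0 passed by edgeR, by DESeq2 or by limma-voom, with 0 at an unadjusted p under 0.05 in each. Approximate SEs ran from 0.07 (mt-Co1) to 0.17 (mt-Nd6), apart from 0.74 for mt-Nd3, which had only 371 counts. For most of them a shift like the nuclear members' median of -0.23 is not excluded. The share of counts from all mitochondrially encoded genes was 6.57 ± 1.01% in placode-enriched and 6.56 ± 0.777% in IFE libraries (SD, n = 7 each). Of 44 assembly factors, which build the complexes without staying in them, 10 fell and 34 did not pass, with a median of -0.18. The smallest p of the list was that of Acad9, an assembly factor of complex I, at 32.6 ± 6.19 CPM in the placode-enriched and 54.6 ± 5.89 CPM in the IFE fraction (-0.76, adjusted p = 0.000155). Ecsit, of complex I, and Sco1, which delivers copper to complex IV, fell by 0.39 and 0.40 on the log2 scale. Of 18 genes of the tricarboxylic acid cycle, which supplies NADH and succinate, 6 fell and 12 did not pass (median -0.14), among them Suclg1 (-0.38), Ogdh (-0.30) and Cs (-0.24). Of 9 genes that shape the inner membrane 3 fell, Phb (-0.55), Phb2 (-0.28) and Opa1 (-0.25), and 6 did not pass (median -0.20). Of 76 mitochondrial ribosomal protein genes 14 fell, 2 rose and 60 did not pass (median -0.13), and of 76 cytosolic ones 5 fell and 71 did not pass (median -0.10).

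Among 14 regulators of mitochondrial biogenesis, 3 fell and 11 did not pass, with a median of -0.06. Those that fell were the coactivators Pprc1 (log2 fold change -0.29, adjusted p = 0.0229) and Ppargc1b (-0.38, adjusted p = 0.0405) and the nuclear receptor Esrra (-0.40, adjusted p = 0.0411). Nrf1, whose motif is marked in the promoters above, had 70.6 ± 8.64 CPM in the placode-enriched and 61.7 ± 5.07 CPM in the IFE fraction (0.19, adjusted p = 0.0595). Of 10 carriers and outer membrane genes 2 rose, the uncoupling protein gene Ucp2 (0.74, adjusted p = 3.86e-05) and the channel gene Vdac3 (0.78), and 2 fell, the creatine kinase gene Ckmt1 (-1.10, adjusted p = 9.78e-07) and Vdac1 (-0.49). Of 11 genes linked to hypoxia 2 rose, among them Vegfa (0.45), and 4 fell, among them Epas1 and Higd1a (-0.46). The nuclear members thus had the lowest median of these mitochondrial lists, -0.23. The medians of the carriers and outer membrane genes (-0.22) and of the genes that shape the inner membrane (-0.20) were close to it. The differences between lists were not tested.

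**Figure D5:**
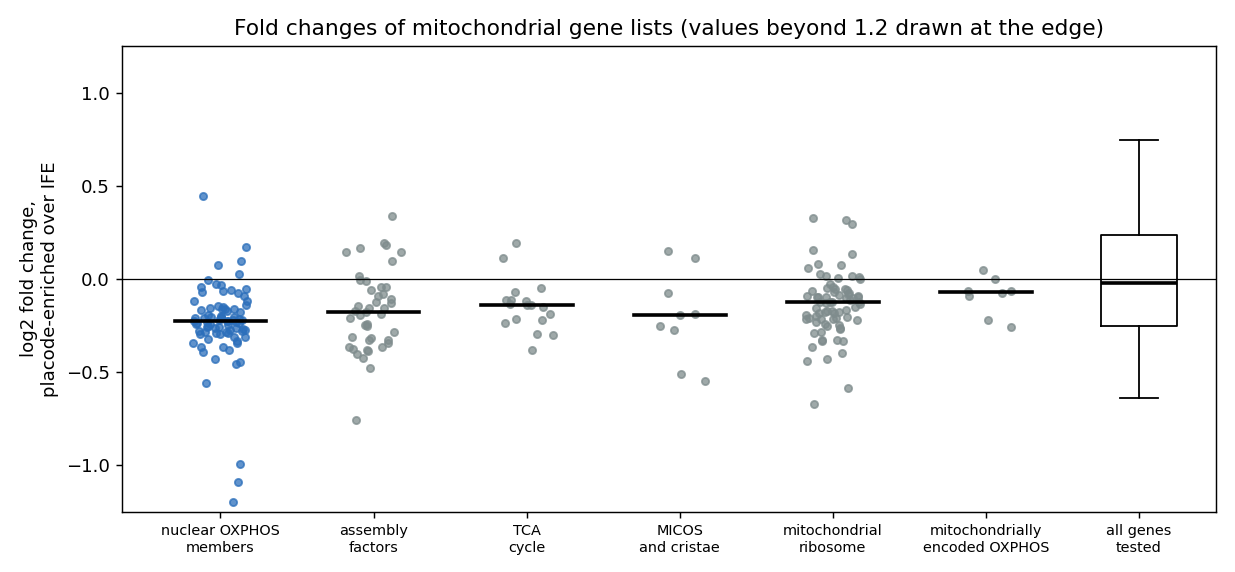
Log2 fold change of placode-enriched over IFE for each tested gene of 6 mitochondrial gene lists (points, bar at the median), beside all genes tested (box from the lower to the upper quartile, line at the median, whiskers from the tenth to the ninetieth percentile). The medians are -0.23 for the nuclear members, -0.07 for the mitochondrially encoded subunits and -0.02 for all genes, and 1 member beyond the axis is drawn at the lower edge.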

How the data were processed

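The authors deposited raw read counts per Ensembl gene, whole numbers with no normalization. Per the submitters' processing notes, the tools were STAR (version listed as 1.5), HTSeq, Trimmomatic, bcl2fastq (2.17.1.14), MultiQC and FastQC, and the builds GRCm38 and mm10. Not given in the sources used here are annotation release, strand setting and handling of duplicates. Amplified reads are not independent molecules. Symbols came from GENCODE M21 (release 21 for mouse), which matched 25949 of 26252 identifiers; the 303 others held 0.436% of counts. Protein-coding gene identifiers of the rule without a row (3, among them a second one for Atp5o) were not analysed here, and 1 member of complex I is counted but not reported singly here.

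Counts were filtered with filterByExpr (15382 genes kept, 10870 removed), scaled by TMM and tested with edgeR 4.0.16 (limma 3.58.1, R 4.3.3), robust quasi-likelihood F tests with the pair as a block and Benjamini-Hochberg adjustment over all genes at 0.05. The pairing comes from the design text and shared title codes; deviations from fraction means correlated by -0.132 to 0.195 within pairs (mean 0.0548). The labels do not say whether pairs share a day; the p-values reflect only the variation among pools. Fold changes use a prior count of 0.125, and standard errors are approximate. CPM use TMM-scaled library sizes, and RPKM divide them by exon-union length. Near-identical transcripts were found with BLAST 2.17.0. Alternatives included DESeq2 1.42.0 and limma-voom; RPKM and isoform ratios by principal transcript length were chosen after seeing the data. Python 3.11.15, pandas 2.3.3, numpy 2.4.6 and matplotlib 3.10.9 made tables and figures.

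Members and lists were chosen with earlier results of these data known. Values are given for passing members (the 30 with the smallest p), the extremes of each complex, isoform groups, the 3 highest by RPKM, Cycs, Sdha to Sdhd, and up to 3 genes of each other list. Other members that did not pass, Nrf1, Hif1a, Bnip3, the pericyte markers and the mitochondrially encoded subunits were named after their values were seen.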

Additional observations from a re-analysis of the deposited data

Results flagged for a closer look

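In 10 of 164 groups of 7 libraries, the highest or lowest CPM of a member stood apart from the others of its fraction, by Dixon's gap rule at its 95% critical value. Chance gives about 1 in 20 groups. The placode-enriched library of pair 2 was high for Sdhb (131.65 CPM, next 99.4), and that of pair 5 for Cox6b2 (25.851 CPM, next 20.4). In IFE, the library of pair 1 was high for Ndufb11 (139.46 CPM), Ndufb5 (93.63 CPM), Ndufs8 (117.72 CPM) and Cox7c (90.292 CPM), and that of pair 3 for Ndufa12 (153.22 CPM), Ndufb10 (123.48 CPM) and Cox6b1 (345.74 CPM). The IFE library of pair 5 was low for Atp5l (19.194 CPM, next 36.0). Of these genes, Ndufb10 and Cox6b2 kept their calls when each pair was left out in turn; the calls of Ndufb5, Ndufb11 and Cox6b1 are among those lost, and Sdhb, Ndufs8, Cox7c, Ndufa12 and Atp5l did not pass.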

How the results depend on the processing

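The median log2 fold change of the members lay between -0.25 and -0.19 under all 19 alternatives, and no called result changed its direction. With no replicate block, 26 members fell and 1 rose; 7 calls were lost (Ndufb5, Ndufb6, Ndufb11, Ndufs7, Ndufv2, Sdhd, Atp5g1) and 3 gained. Fallen members numbered 25 with DESeq2 size factors, 22 with upper-quartile scaling, 20 with library size only, 21 with no filter, 25 with at least 1 CPM in 7 libraries, 33 by DESeq2, 34 by limma-voom, 24 without mitochondrially encoded genes and 22 without structural noncoding RNA genes. Leaving out 1 pair gave 15 to 31 fallen members, 1 that rose each time, and 3953 to 5229 genes called in all. The 3 pairs whose codes start with 27-7 alone gave 2331 genes called, 0 members that rose and 1 that fell (Ndufa4l2; median -0.19), and the other 4 pairs alone gave 3087, 0 and 11 (median -0.25); these fits hold fewer samples. The highest 3 members by RPKM, over both fractions, shared 2 genes under either length. Median all-gene shifts stayed within 0.04 of 0. Depth limits Cox6a2 and Cox8c, which could not be tested.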
